A study of Mus with 96 samples.

Results

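The genes followed here build, crosslink and turn over the extracellular matrix of the liver, or mark the stellate cells that make most of it. The set held 47 genes, 14 collagens and 33 other matrix and contractile genes. A row of the deposited table was taken when its gene name was on a list of matrix and stellate cell genes and its counts summed to at least 100 over the 96 livers. All 47 listed genes met that rule, and they are 47 of the 15548 genes that passed the same minimum, out of 55487 genes in the table. The rule uses no expression difference, but the list was drawn up with earlier results of these data known.

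Hepatic stellate cells lie between hepatocytes and the sinusoidal endothelium and store vitamin A as retinyl ester, which is made by Lrat. After injury they turn into myofibroblasts, which express the smooth muscle actin Acta2 and secrete fibrillar collagens, and transforming growth factor beta, encoded by Tgfb1, is a main driver of that change. Secreted collagen chains are folded with the help of the chaperone Serpinh1, joined into fibrils, crosslinked by lysyl oxidases and cut by matrix metalloproteinases, which tissue inhibitors of metalloproteinases (TIMPs) block. Basement membranes are built instead from type IV collagen, laminins and nidogen.

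Mice of both sexes entered the experiment at 8 to 10 weeks of age, before the diet period, and were older when the livers were taken. All mice carried 2 floxed Bmal1 alleles. Hep-Bmal1WT mice had no Cre (Alb+/+ Bmal1flx/flx), and their Hep-Bmal1KO littermates carried Cre under the albumin promoter (AlbCre/+ Bmal1flx/flx), so the clock gene Bmal1 was targeted in hepatocytes while stellate cells kept it. Mice of each genotype were fed either normal chow (NC) or, for 2 weeks, a high-fat and choline-deficient diet (cdHFD), under 12 h of light a day. Each of the 4 combinations had 24 mice, 4 at each of ZT 2, 6, 10, 14, 18 and 22, where ZT counts hours from lights on. RNA of the whole liver was measured by BRB-seq, a pooled 3′ tag method that reads the end of each mRNA, and levels are given as CPM, a gene's reads scaled to a common library total, after TMM scaling.

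The count on genes ran from 1861740 to 9718615 reads over the libraries, so that 1 read was worth 0.0889 to 0.594 CPM. In 7 of the 96 libraries, both 10 clock genes and 20 other genotype-dependent genes lay nearer to the other genotype than to the label: 2 labelled Hep-Bmal1WT on NC, 2 Hep-Bmal1WT on cdHFD, 2 Hep-Bmal1KO on NC and 1 Hep-Bmal1KO on cdHFD. They were kept under their labels, are called the discordant libraries here, and the counts of genes are also given without them. Except for overlap of ranges, those counts come with no share of all genes. The median level of Bmal1 itself (Arntl in the table) over all ZTs does not check the genotype. It was 7.21 CPM in Hep-Bmal1WT and 7.55 CPM in Hep-Bmal1KO livers on NC, and the floxed exon lies outside the 3′ end that is read. The authors report a reduced amplitude of Bmal1 over the day in Hep-Bmal1KO livers on NC, which a median over ZTs does not show. The plate had 12 columns of 8 mice, each column with 1 genotype on 1 diet, so plate column and group cannot be told apart. Each column held 2 ZTs of its group, 1 in rows A to D and the other in rows E to H. Within a group, plate position and ZT therefore cannot be told apart either. In whole liver RNA, a change in the number of stellate cells cannot be told apart from a change in RNA per cell.

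The first question was how cdHFD changed matrix genes in livers with an intact hepatocyte clock. In Hep-Bmal1WT livers 40 of the 47 genes were higher on cdHFD and 4 were lower (edgeR quasi-likelihood test with ZT as a factor, Benjamini-Hochberg adjusted p under 0.05 over all genes). Among all genes tested 28.4% were higher and 27.3% lower. The median log2 fold change was 1.39 over the set, 1.66 over the collagens and 1.21 over the other members, beside 0.01 over all genes. Without the discordant libraries 39 genes were higher and 4 lower, the pericyte gene Rgs5 being the one lost.

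**Figure D1:**
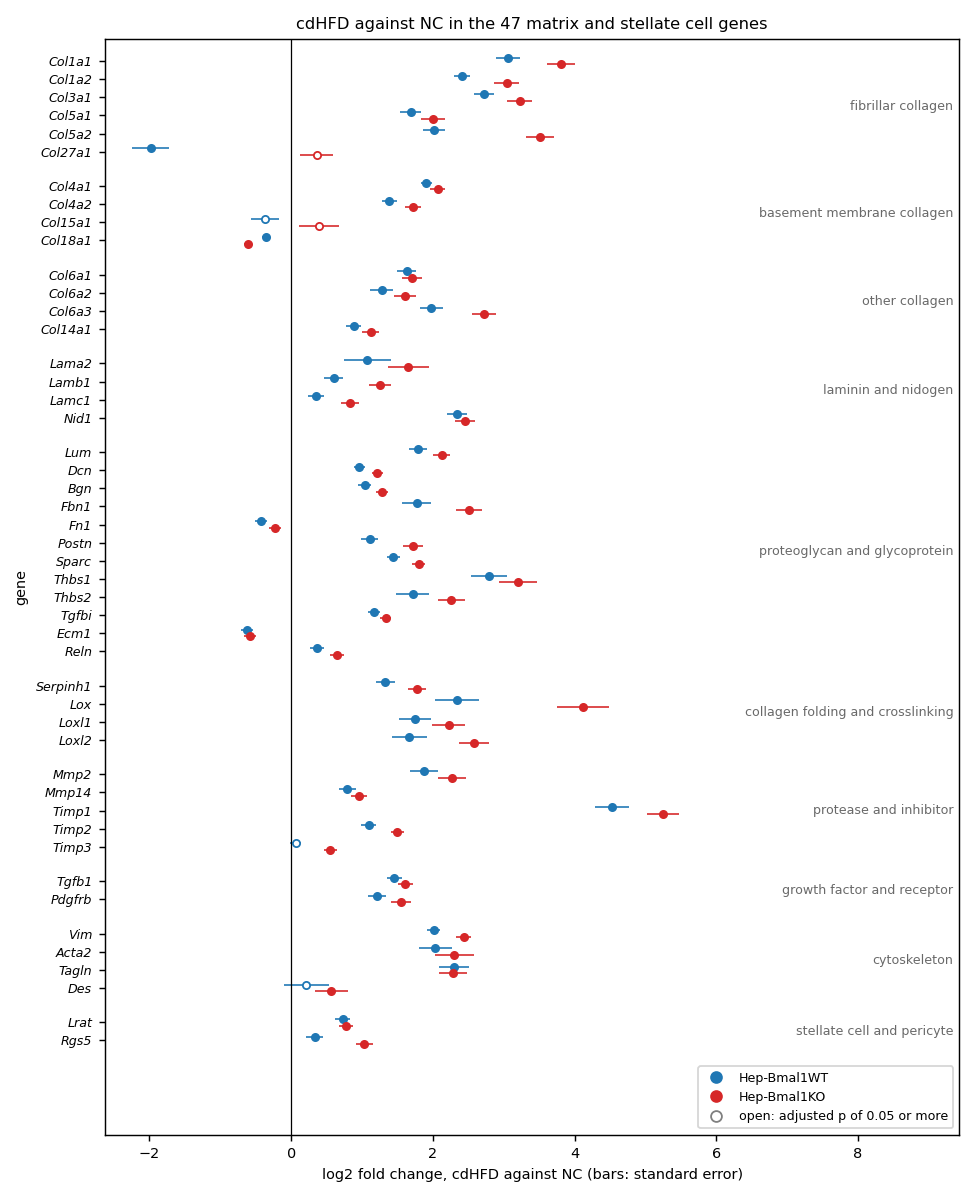
Log2 fold change on cdHFD against NC (horizontal axis) for each of the 47 genes, grouped by role, in Hep-Bmal1WT and Hep-Bmal1KO livers; points are edgeR estimates from 48 livers each, bars standard errors, and filled points have an adjusted p under 0.05. Most points lie to the right of 0 in both genotypes, with Timp1 farthest at 4.53 and 5.25, while Col18a1, Ecm1 and Fn1 lie to the left in both.

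Type I collagen is the main collagen of scar and type III its usual partner. Col1a1 (ENSMUSG00000001506, chromosome 11, 94936224 to 94953042 in GRCm38.p6) ranged from 0.654 to 17.2 CPM on NC, with a median of 4.53, and from 22.0 to 99.97 CPM on cdHFD, with a median of 43.8. The groups did not overlap, and the log2 fold change was 3.06 ± 0.17 (SE, adjusted p = 2.02e-21). Col1a2 (ENSMUSG00000029661, chromosome 6, 4505618 to 4541543), the second chain of type I collagen, ranged from 5.03 through 9.17 to 15.1 CPM on NC (lowest, median, highest) and from 29.98 through 49.96 to 87.3 CPM on cdHFD. It too separated every cdHFD liver from every NC liver, by 2.41 ± 0.12 on the log2 scale (adjusted p = 8.27e-24). Col3a1 (ENSMUSG00000026043, chromosome 1, 45311538 to 45349706) had 9.37, 26.4 and 40.03 CPM on NC and 97.3, 156 and 324 CPM on cdHFD as lowest, median and highest values. Its log2 fold change was 2.72 ± 0.14 (adjusted p = 2.29e-23), again with no overlap. Col5a1 and Col5a2, the type V chains that set the width of fibrils, rose by 1.68 ± 0.15 and 2.02 ± 0.15.

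Col27a1 (ENSMUSG00000045672, chromosome 4, 63214009 to 63334991), a fibrillar collagen known from cartilage, went the other way. It ranged from 1.71 through 9.25 to 40.9 CPM on NC and from 0.266 through 2.57 to 10.6 CPM on cdHFD. The ranges overlapped, and the log2 fold change was -1.98 ± 0.26 (adjusted p = 7.15e-09). It was the 1 lower gene among the 6 fibrillar collagens.

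Of the 4 basement membrane collagens 2 were higher and 1 lower. Col4a1 (ENSMUSG00000031502, chromosome 8, 11198423 to 11312889), a chain of the type IV network, had the smallest p of the set. Its lowest, median and highest levels were 12.4, 18.3 and 32.4 CPM on NC and 54.1, 70.3 and 105 CPM on cdHFD, without overlap, a log2 fold change of 1.91 ± 0.08 (adjusted p = 2.12e-26). Its partner Col4a2, which lies head to head with it, rose by 1.39 ± 0.11. The annotated ends of the pair overlap and the use of strand in counting is not given in the sources used here, but both are read at their far ends. Col18a1 (ENSMUSG00000001435, chromosome 10, 77052178 to 77166530), the source of endostatin, ranged from 285 through 404 to 502 CPM on NC and from 273 through 308 to 441 CPM on cdHFD. The ranges overlapped, and Col18a1 fell by 0.36 on the log2 scale (SE 0.05, adjusted p = 2.8e-08). Col15a1 was not called, with medians of 3.12 and 2.73 CPM.

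In terms of 3′ tags, of which each transcript gives about the same number whatever its length, Col18a1 made up 76.8% of the summed CPM of the 14 collagens over the NC livers and 34.7% over the cdHFD livers of both genotypes. Col3a1 went from 4.49% to 22.9% of that sum and Col1a1 from 0.964% to 7.02%. The sum of the 13 other collagens, without Col18a1, was 85.4, 144 and 182 CPM (lowest, median, highest) in Hep-Bmal1WT livers on NC and 328, 470 and 784 CPM on cdHFD. The other 4 collagens, the type VI chains Col6a1, Col6a2 and Col6a3 and the fibril-associated Col14a1, were all higher, by 0.89 to 1.98 on the log2 scale.

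All 4 laminin and nidogen genes were higher. Nid1, which links laminin to type IV collagen, changed most, by 2.34 ± 0.14, from a median of 5.89 to 32.4 CPM, while the laminin chains Lama2, Lamb1 and Lamc1 rose by 0.35 to 1.08. Among 12 proteoglycan and glycoprotein genes 10 were higher and 2 lower. The largest rise was that of Thbs1, an activator of latent TGF-beta, at 2.79 ± 0.25, and the small leucine-rich proteoglycans Lum, Dcn and Bgn rose by 1.79, 0.96 and 1.04. Sparc, a collagen-binding glycoprotein, went from 43.4, 72.6 and 131 CPM to 122, 195 and 287 CPM (lowest, median, highest), a log2 fold change of 1.44 ± 0.09 (adjusted p = 9.98e-19).

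The 2 lower glycoprotein genes are also made by hepatocytes. Fn1 encodes fibronectin, a plasma protein made by hepatocytes as well as a matrix protein. It ranged from 491 through 743 to 1160.3 CPM on NC and from 380 through 546 to 729 CPM on cdHFD. Its log2 fold change was -0.43 ± 0.08 (adjusted p = 1.22e-05), with overlapping groups. Ecm1, a secreted glycoprotein that keeps TGF-beta latent, ranged from 73.4 through 135 to 222 CPM on NC and from 64.4 through 82.9 to 119.97 CPM on cdHFD, a log2 fold change of -0.62 ± 0.09 (adjusted p = 1.88e-08). The direction of Fn1 and Col18a1 depended on the scaling. With library totals in place of TMM, which shifts the median of all genes by 0.50 on cdHFD, Fn1 was 0.07 and Col18a1 0.14 higher in Hep-Bmal1WT livers. Most of the lower calls of these livers were lost on that scale.

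Collagen folding and crosslinking genes all rose. Serpinh1 was higher by 1.33 ± 0.14, and the lysyl oxidases Lox, Loxl1 and Loxl2 by 2.35 ± 0.31, 1.75 ± 0.23 and 1.66 ± 0.25. Lox was at 0 in 8 of 24 NC livers, where its reads summed to 42. Of 5 protease and inhibitor genes 4 were higher and none lower. Timp1 (ENSMUSG00000001131, chromosome X, 20870166 to 20874737), the inhibitor of metalloproteinases most tied to fibrosis, was at 0 in 7 NC livers, with a median of 0.231 and a highest value of 1.75 CPM. On cdHFD it ranged from 7.80 through 11.6 to 21.6 CPM, a log2 fold change of 4.53 ± 0.24 (adjusted p = 4.98e-22) and no overlap. The gelatinase Mmp2 rose by 1.88, the membrane metalloproteinase Mmp14 by 0.79 and the inhibitor Timp2 by 1.09, whereas Timp3 was not called (0.06 ± 0.08, adjusted p = 0.5).

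Tgfb1 and Pdgfrb, the receptor for platelet-derived growth factor on stellate cells, rose by 1.45 ± 0.11 and 1.21 ± 0.12. Of the 4 cytoskeletal genes 3 were higher. Vim (ENSMUSG00000026728, chromosome 2, 13574311 to 13582826), the intermediate filament of mesenchymal cells, ranged from 20.3 through 32.9 to 68.2 CPM on NC and from 108 through 141 to 202 CPM on cdHFD. That is a log2 fold change of 2.01 ± 0.09 (adjusted p = 1.74e-24) without overlap. Acta2, the myofibroblast actin, ranged from 0.654 through 3.38 to 16.99 CPM and from 6.34 through 16.003 to 46.8 CPM, with overlap, and rose by 2.04 ± 0.23 (adjusted p = 7.98e-11). Tagln, an actin-binding protein of contractile cells, rose by 2.30 ± 0.21. Des, the muscle-type filament of quiescent and active rodent stellate cells, spread widely on NC, at 1.31, 3.61 and 57.1 CPM, against 3.88, 6.46 and 26.9 CPM on cdHFD, and was not called (0.21 ± 0.32, adjusted p = 0.59). Lrat ranged from 8.56 through 17.6 to 31.6 CPM on NC and from 19.2 through 30.5 to 42.3 CPM on cdHFD, a rise of 0.73 ± 0.11 (adjusted p = 1.51e-07).

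In 11 genes all 24 cdHFD livers lay above all 24 NC livers of Hep-Bmal1WT mice: Col1a1, Col1a2, Col3a1, Col5a2, Col4a1, Col4a2, Tgfbi, Timp1, Tgfb1, Vim and Tagln. Over all genes this held for 342 of 15548, or 2.20%.

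**Figure D2:**
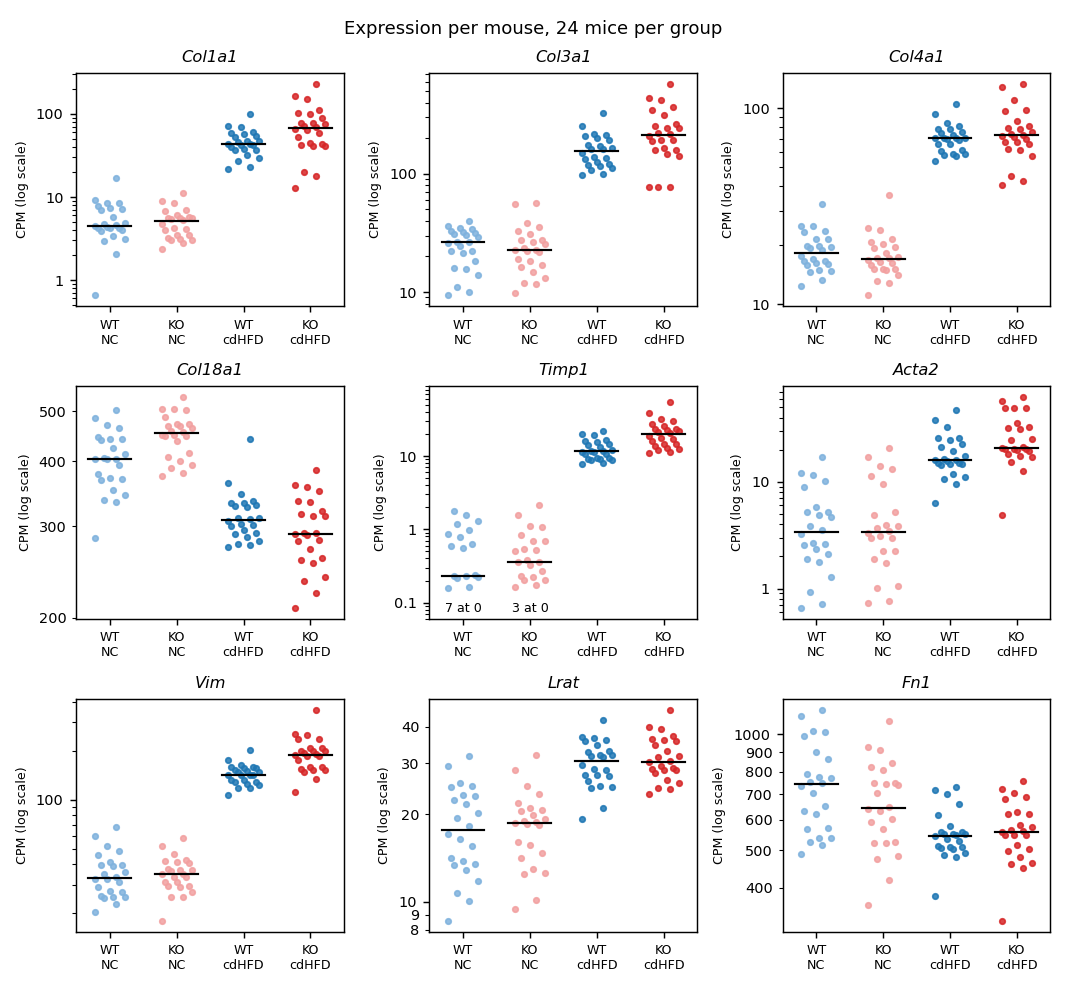
CPM per mouse (vertical axis, log scale) of 9 genes in the 4 groups of 24 livers; each point is 1 mouse, each bar the median, and mice at 0 are counted in the Timp1 panel. For Col1a1, Col3a1, Col4a1, Timp1 and Vim the cdHFD points lie above the NC points of the same genotype, while the groups overlap for Col18a1, Acta2, Lrat and Fn1.

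In Hep-Bmal1KO livers the same diet contrast gave 42 higher and 3 lower genes, where 32.4% of all genes were higher and 29.6% lower. The median log2 fold change was 1.72 over the set, 1.86 over the collagens and 1.65 over the others, beside 0.02 over all genes. Of the set, 40 genes were higher and 3 lower in both genotypes, a joint count given without its share over all genes. Without the discordant libraries 43 were higher and 2 lower, with Col27a1 gained and Fn1 lost. Fn1 also lost its call with DESeq2's size factors and with DESeq2's Wald test.

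Vim had the smallest p in Hep-Bmal1KO livers. It ranged from 17.9 through 34.8 to 58.3 CPM on NC and from 111 through 189 to 359 CPM on cdHFD, a log2 fold change of 2.43 ± 0.10 (adjusted p = 2.66e-26). Timp1 had 0, 0.353 and 2.13 CPM on NC and 11.1, 19.9 and 53.8 CPM on cdHFD, a log2 fold change of 5.25 ± 0.23 (adjusted p = 1.38e-25). Neither gene overlapped between the diets. Sparc went from 49.7, 70.6 and 110 CPM to 138, 249 and 397 CPM, a rise of 1.80 ± 0.09 (adjusted p = 6.29e-24).

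The main scar collagens rose without overlap between the diets. Col1a1 ranged from 2.35 through 5.07 to 11.1 CPM on NC and from 12.99 through 67.7 to 231 CPM on cdHFD, a log2 fold change of 3.81 ± 0.20 (adjusted p = 1.08e-22). Col1a2 ranged from 4.64 through 8.86 to 17.3 CPM and from 24.996 through 67.5 to 209.9 CPM, a log2 fold change of 3.04 ± 0.17. Col3a1 ranged from 9.78 through 22.7 to 56.2 CPM and from 76.9 through 215 to 578 CPM, a log2 fold change of 3.23 ± 0.17. For each of the 3 the cdHFD mice spread more widely than in Hep-Bmal1WT livers, in CPM. Col4a1 ranged from 11.1 through 16.98 to 35.9 CPM on NC and from 40.8 through 72.7 to 133 CPM on cdHFD, a rise of 2.06 ± 0.11 (adjusted p = 4.66e-22). The sum of the 13 collagens other than Col18a1 went from 84.2, 117 and 200.3 CPM to 240.0, 595 and 1497 CPM.

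Contractile and stellate cell genes rose as well. Acta2 had 0.725, 3.38 and 20.9 CPM on NC and 4.89, 20.9 and 62.7 CPM on cdHFD, with overlap and a log2 fold change of 2.30 ± 0.28. Des had 1.78, 3.71 and 29.2 CPM and 3.89, 7.63 and 13.8 CPM, a log2 fold change of 0.56 ± 0.23 (adjusted p = 0.03). Lrat had 9.44, 18.7 and 31.9 CPM and 23.5, 30.3 and 45.8 CPM, a log2 fold change of 0.78 ± 0.10. Lox rose by 4.12 ± 0.36 from 27 reads in all NC livers, 15 of which were at 0, to a median of 3.52 CPM. Its reads over the NC livers of both genotypes stayed below the minimum of 100 counts, so Lox passed that minimum only through cdHFD livers.

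The lower genes were those lower in Hep-Bmal1WT livers, without Col27a1. Col18a1 ranged from 374 through 453 to 533 CPM on NC and from 208 through 289.9 to 384 CPM on cdHFD, and fell by 0.61 (SE 0.06, adjusted p = 2.46e-13). Ecm1 ranged from 79.1 through 131 to 186 CPM and from 66.2 through 85.3 to 126 CPM, a log2 fold change of -0.58 ± 0.09 (adjusted p = 8.61e-08). Fn1 ranged from 361 through 645 to 1085 CPM and from 328 through 559 to 758 CPM, a log2 fold change of -0.23 ± 0.08 (adjusted p = 0.0174), and with library totals it was 0.26 higher. The 2 genes not called were Col27a1 (0.36 ± 0.24, adjusted p = 0.185) and Col15a1 (0.39 ± 0.28, adjusted p = 0.227). None of the lower genes, Ecm1 included, was called lower when library totals replaced TMM.

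All 24 cdHFD livers lay above all 24 NC livers in 17 genes of Hep-Bmal1KO mice, against 496 of 15548 over all genes, or 3.19%. Of these 17 genes 10 were also free of overlap in Hep-Bmal1WT mice, a joint count given without its share over all genes. Those added were Col6a3, Nid1, Lum, Dcn, Sparc, Thbs2 and Rgs5, and Tagln overlapped here.

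The second question was whether loss of hepatocyte Bmal1 changed matrix genes within a diet. On NC 3 genes differed between genotypes, 1 higher and 2 lower in Hep-Bmal1KO livers, where 7.08% of all genes were higher and 5.45% lower. The median log2 fold change over the set was -0.06, beside -0.01 over all genes, and 8 genes had an unadjusted p under 0.05, as did 3729 of the 15548 genes. All 3 were collagens. Col27a1 had a median of 1.58 CPM in Hep-Bmal1KO livers (0.317 to 10.1) against 9.25 CPM in Hep-Bmal1WT livers (1.71 to 40.9), a log2 fold change of -2.47 ± 0.30 (adjusted p = 1.07e-07) with overlapping ranges. Col5a2 had medians of 1.69 and 3.05 CPM in Hep-Bmal1KO and Hep-Bmal1WT livers, a log2 fold change of -0.86 ± 0.25 (adjusted p = 0.0146), and was not called in males or females alone. Col18a1 was higher by 0.16 ± 0.05 (adjusted p = 0.0225). None of the 33 other members was called, and without the discordant libraries Col15a1 joined, for 4 genes.

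On cdHFD 27 genes were higher in Hep-Bmal1KO livers and none was lower, where 4.75% of all genes were higher and 4.92% lower. No member was lower at an unadjusted p under 0.05 either, and DESeq2's Wald test called 29 genes, the same 27 with Lama2 and Pdgfrb. The median log2 fold change was 0.34 over the set, also 0.34 over the other members and 0.33 over the collagens, beside 0.01 over all genes. The differences were small next to those between diets. The ranges of the 2 genotypes overlapped in all 47 genes, as they did in every one of the 15548 genes, so that 0% of all genes were free of overlap. They still overlapped in all 47 without the discordant libraries, and 4 of all genes (0.0257%) were free of overlap. Vim differed by 0.42 ± 0.07 (adjusted p = 7.6e-05), Lox by 1.05 ± 0.20 (adjusted p = 0.000204) and Timp1 by 0.73 ± 0.14 (adjusted p = 0.000247). They were followed by Timp2, at 0.42 ± 0.09 (adjusted p = 0.000793), and Dcn, at 0.25 ± 0.06 (adjusted p = 0.00158).

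Of 12 proteoglycan and glycoprotein genes 10 were called, with Fn1 (0.03 ± 0.06) and Ecm1 (-0.01 ± 0.06) as exceptions and a median of 0.31. Of the 14 collagens 6 were called: Col1a1 at 0.61 ± 0.17 (adjusted p = 0.0149), Col1a2 at 0.57 ± 0.13, Col3a1 at 0.50 ± 0.13, Col5a2 at 0.60 ± 0.13, Col4a2 at 0.35 ± 0.09 and Col6a3 at 0.68 ± 0.15. Col4a1, the gene of smallest p for diet in Hep-Bmal1WT livers, had medians of 72.7 and 70.3 CPM in Hep-Bmal1KO and Hep-Bmal1WT livers and was not called (0.09 ± 0.08, adjusted p = 0.597). Acta2 differed by 0.55 ± 0.18 (adjusted p = 0.0358) and Tagln by 0.53 ± 0.15, while Tgfb1 (0.06 ± 0.08) and Lrat (0.06 ± 0.07) were not called.

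The number of genotype calls on cdHFD was 31 without the discordant libraries. It was 11 in males alone and 9 in females alone, each with fewer livers. It fell to 10 when replicate 2 of each combination, a male in most of them, was left out. These counts are given without the shares of all genes in the same fits. They cannot tell a change particular to the set from a change over all genes.

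**Figure D3:**
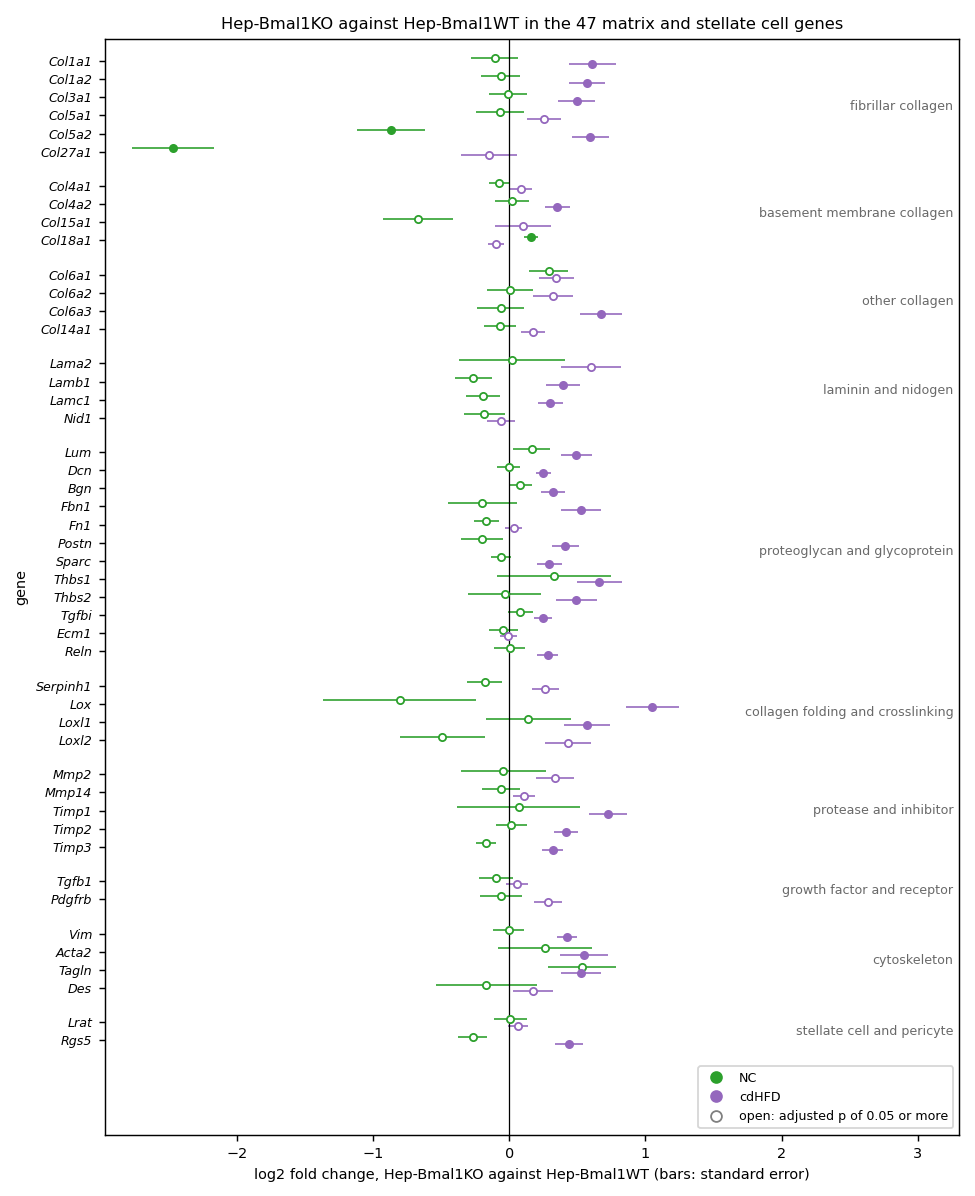
Log2 fold change of Hep-Bmal1KO against Hep-Bmal1WT livers (horizontal axis) for each of the 47 genes on NC and on cdHFD, grouped by role; points are edgeR estimates from 48 livers each, bars standard errors, and filled points have an adjusted p under 0.05. On NC most points lie near 0, with Col27a1 at -2.47, and on cdHFD 27 filled points lie to the right, none to the left.

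The test of the difference between the 2 diet effects, genotype by diet over all 96 livers, called 8 of the 47 genes, where 3.04% of all genes were called. The diet effect was more positive in Hep-Bmal1KO livers for 7 of them and more negative for Col18a1, beside 1.04% and 2.00% of all genes. Col27a1 differed by 2.32 ± 0.37 (adjusted p = 1.71e-05), with diet effects of -1.98 and 0.36. Col5a2 differed by 1.46 ± 0.27 (adjusted p = 0.000231). Rgs5, a regulator of G-protein signalling in pericytes, differed by 0.71 ± 0.15 (adjusted p = 0.00274), and Timp3 by 0.49 ± 0.11 (adjusted p = 0.00284). For Lamb1 the difference was 0.65 ± 0.19 (adjusted p = 0.0355), and for Col18a1 it was -0.26 ± 0.07 (adjusted p = 0.0379). The other calls were those of Postn, a matricellular protein of injured tissue, and Lox, which met the minimum of counts only through its cdHFD livers. For 39 of the 47 genes, Col1a1, Col3a1, Timp1, Vim and Acta2 among them, a difference between the genotypes in the diet effect was not called. The median difference over the set was still 0.38, beside a median of 0.01 and an upper quartile of 0.21 over all genes. With the discordant libraries left out 9 genes were called, with Lox lost and Lamc1 and Sparc gained. With replicates left out in turn the count ranged from 2 to 9.

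The third question was whether matrix genes followed the time of day. A rhythm was called when a cosine and a sine term of 24 h fitted to the 24 livers of a group had an adjusted p under 0.05. On this rule 11 of the 47 genes were rhythmic in at least 1 group, 36 in none and 1, Timp3, in all 4 groups. Shares of all genes are given for each group alone, not for these joint counts. In Hep-Bmal1WT livers 6 genes were called on NC, where 18.7% of all genes were, and 7 on cdHFD, where 14.3% were. In Hep-Bmal1KO livers 2 were called on NC, beside 4.35% of all genes, and 1 on cdHFD, beside 3.81%. These shares of the set were near or below the shares of all genes. Without the discordant libraries the counts were 7, 10, 1 and 1 in the same order.

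Timp3 (ENSMUSG00000020044, chromosome 10, 86300412 to 86349505) encodes an inhibitor of metalloproteinases that stays bound to the matrix. Its gene lies within Syn3, on which reads could also be counted. In Hep-Bmal1WT livers on NC it rose from 15.5 ± 1.12 CPM at ZT2 (SD, n = 4) to 32.2 ± 3.22 CPM at ZT10, and stood at 18.5 ± 5.53 CPM at ZT22. In Hep-Bmal1KO livers on NC it was 13.6 ± 2.51 CPM at ZT2 and 32.2 ± 4.99 CPM at ZT14. The 4 mice of the low and of the high time did not overlap in either group. On cdHFD it was 20.9 ± 6.52 CPM at ZT2 and 36.5 ± 4.73 CPM at ZT10 in Hep-Bmal1WT livers, and 23.9 ± 6.14 and 55.7 ± 12.7 CPM at those times in Hep-Bmal1KO livers. The mice at ZT2 and ZT10 did not overlap in these groups either. The low and high times were picked from these values, so the separations add no support to the rhythm of Timp3. Its fitted amplitude on the log2 scale was 0.50 ± 0.09 and 0.40 ± 0.07 in Hep-Bmal1WT livers on NC and cdHFD (SE) and 0.50 ± 0.08 and 0.56 ± 0.09 in Hep-Bmal1KO livers. The fitted peaks lay at ZT 12.5 and 11.1 in Hep-Bmal1WT livers and at ZT 13.7 and 10.2 in Hep-Bmal1KO livers, in the same order of diets. Adjusted p values were 0.00115, 0.00109, 0.00222 and 0.000149 by edgeR's quasi-likelihood test.

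Col27a1 was rhythmic in Hep-Bmal1WT livers on NC (adjusted p = 0.0262) and on cdHFD (adjusted p = 0.000593). The NC call was lost without replicate 1 (adjusted p = 0.231), without replicate 3 (adjusted p = 0.0611) and by a cosinor F test (adjusted p = 0.122), while the cdHFD call held under every alternative run. On NC it was 3.32 ± 1.01 CPM at ZT6, 20.4 ± 8.39 CPM at ZT10 and 22.2 ± 13.2 CPM at ZT14. On cdHFD it was 7.98 ± 2.55 CPM at ZT10 and between 1.49 and 3.25 CPM on average at the other times. On NC and cdHFD the means were 3.32 and 2.98 CPM at ZT6 and 22.2 and 3.25 CPM at ZT14, but a dependence of its diet effect on ZT was not called over all libraries. In Hep-Bmal1KO livers no rhythm of Col27a1 was called, and its highest mean was at ZT10 on both diets, 4.79 ± 3.78 and 4.61 ± 1.86 CPM.

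Col4a1 was rhythmic in Hep-Bmal1WT livers on NC (adjusted p = 0.00625), from 26.2 ± 4.26 CPM at ZT6 to 14.8 ± 1.32 CPM at ZT18. The mice of these times did not overlap, but the times were picked from the same values. Without replicate 3 the adjusted p of Col4a1 was 0.0509. On cdHFD its means lay between 62.1 and 81.01 CPM with no rhythm called. Timp2 was called in Hep-Bmal1WT livers on both diets, with adjusted p of 0.0114 and 0.0263, and fitted peaks at ZT 19.96 and 21.2. The NC call was lost without replicate 1 (adjusted p = 0.0536), and the cdHFD call was lost with any 1 replicate left out (adjusted p = 0.0643 to 0.115). The other calls on cdHFD in these livers included Serpinh1 (adjusted p = 0.00172), Acta2 (adjusted p = 0.0214) and Bgn (adjusted p = 0.0230). Serpinh1 kept its call under every alternative run. Acta2 lost it without replicate 1 or 4 (adjusted p = 0.0840 and 0.178) and by the cosinor F test (adjusted p = 0.0954), and Bgn lost it with library totals (adjusted p = 0.0546) and without replicate 1, 2 or 4 (adjusted p = 0.127, 0.0696 and 0.211). Serpinh1 had 32.7 ± 7.37 CPM at ZT6 and 63.7 ± 18.4 CPM at ZT22. The NC rhythm of Des (adjusted p = 0.00494) rested on replicate 4, with 57.1 CPM at ZT18 in a discordant library and 39.8 CPM at ZT22. Without replicate 4 its adjusted p was 0.240, and by the cosinor F test it was 0.192. In Hep-Bmal1KO livers on NC the second call was Col3a1 (adjusted p = 0.0480), which was lost without the discordant libraries (adjusted p = 0.0551), with library totals (adjusted p = 0.0735) and with any 1 replicate left out (adjusted p = 0.0940 to 0.197).

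**Figure D4:**
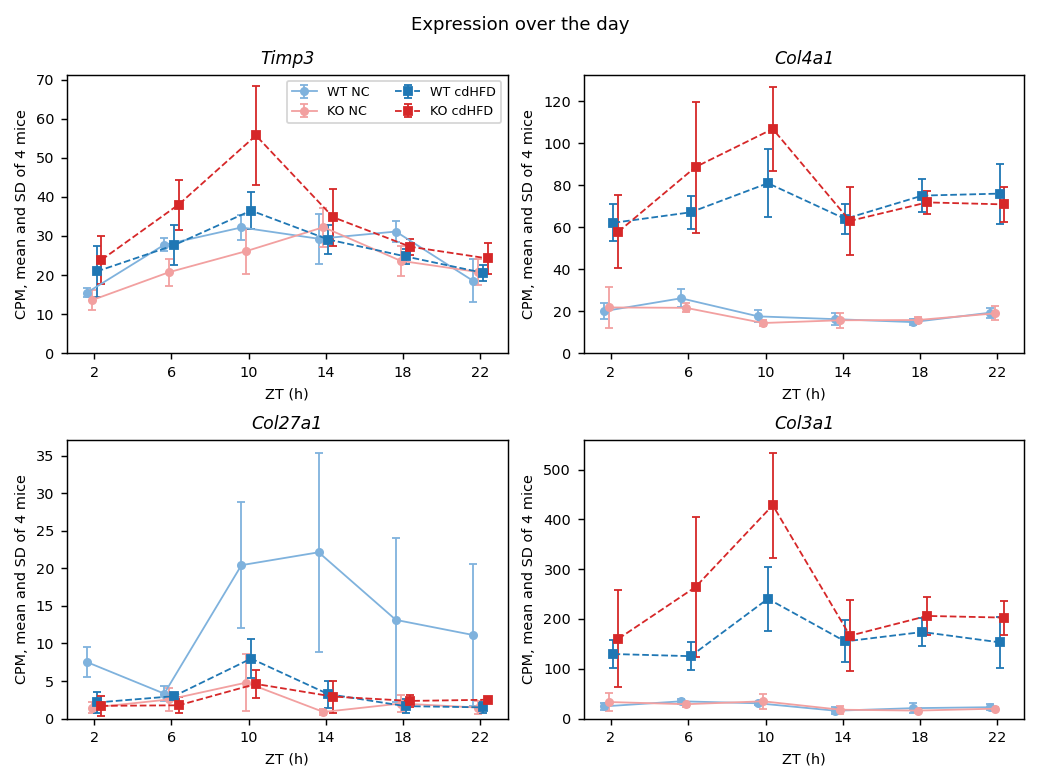
Mean CPM (vertical axis) of Timp3, Col4a1, Col27a1 and Col3a1 against ZT in hours (horizontal axis) in the 4 groups; points are means and bars SDs of 4 mice. Timp3 is lower at ZT2 than at ZT10 in every group, Col27a1 peaks at ZT10 to ZT14 in Hep-Bmal1WT livers on NC at 22.2 CPM, and Col3a1 reaches 428 CPM at ZT10 in Hep-Bmal1KO livers on cdHFD.

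The dependence of the diet effect on ZT was called for 2 genes in Hep-Bmal1WT livers, Col4a1 (adjusted p = 0.0164) and Des (adjusted p = 0.0291). They are 4.26% of the set, below the 5.59% of all genes called. The ratio of mean Col4a1 CPM on cdHFD to that on NC was 2.57 at ZT6 and 5.06 at ZT18. Col4a1 lost its call without replicate 1, 3 or 4 (adjusted p = 0.109, 0.141 and 0.145), and Des lost it with any 1 replicate left out. Des also lost its call without the discordant libraries (adjusted p = 0.172), and Col3a1, Col27a1 and Sparc were then gained, for 4 genes. With replicate numbers left out in turn 0 to 1 genes were called. In Hep-Bmal1KO livers edgeR's test called none of the 47 genes and 1.02% of all genes, while 11 genes had an unadjusted p under 0.05, as did 16.5% of all genes. The smallest p values were 0.00068 for Col5a1 and 0.00074 for Timp3, each with an adjusted p of 0.0562.

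The summed collagens are given over the day as a description. In Hep-Bmal1KO livers on cdHFD the sum of the 13 collagens other than Col18a1 was 1085 ± 299 CPM at ZT10 (SD, n = 4; 844 to 1497) and 445 ± 230 CPM at ZT2. At ZT10 Hep-Bmal1WT livers had 631 ± 131 CPM (506 to 784, the highest in a discordant library), below every Hep-Bmal1KO liver of that time. That time was picked from these values, and the difference was not tested. At the other times the genotypes overlapped, with means in Hep-Bmal1KO and Hep-Bmal1WT livers of 445 and 412 CPM at ZT2, 746 and 404 CPM at ZT6, 500.5 and 461 CPM at ZT14, 606 and 521 CPM at ZT18 and 589 and 465 CPM at ZT22. The means at ZT14 include replicate 1 of each genotype, a discordant library, at 270 CPM in Hep-Bmal1KO and 448 CPM in Hep-Bmal1WT livers. Col3a1 was 428 ± 105 CPM at ZT10 and 160.1 ± 97.3 CPM at ZT2 in Hep-Bmal1KO livers on cdHFD. The 4 mice of a time spread widely in this group, with sums of 240.0, 263, 572 and 704 CPM at ZT2. The SD of the sum was larger than in Hep-Bmal1WT livers on cdHFD at every time but ZT22, where it was 79.5 against 117 CPM. No rhythm was called for any collagen in this group.

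Female and male livers were compared over all 96 mice within combinations of genotype, diet and ZT. On NC all males lay in plate rows A, B, E and F and all females in rows C, D, G and H. On cdHFD this held except at ZT2, and at ZT14 in Hep-Bmal1WT livers. Sex and plate row therefore cannot be told apart on NC, and hardly on cdHFD. The test called 16 of the 47 genes, 15 higher and 1 lower in females, where 17.2% of all genes were called, 8.99% higher and 8.24% lower. The median log2 fold change was 0.15 over the set, beside 0.01 over all genes. Ecm1 differed by 0.41 ± 0.05 (adjusted p = 1.93e-11), Postn by 0.54 ± 0.07 (adjusted p = 2.59e-09) and Fn1 by 0.30 ± 0.05 (adjusted p = 4.18e-07). Mmp14 differed by 0.40 ± 0.07 (adjusted p = 3.96e-06) and Nid1 by 0.43 ± 0.08 (adjusted p = 6.64e-06), while Col27a1 was lower in females (-0.48 ± 0.16, adjusted p = 0.0225). None of the main scar collagens Col1a1, Col1a2 and Col3a1 was called. Without the discordant libraries 14 genes were called, with Tgfbi and Tgfb1 lost.

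The diet effect differed between the sexes for 6 of the 47 genes, where 7.91% of all genes were called and 4.23% had the same direction as these 6. All 6 had a less positive or more negative diet effect in females. Plate row, which nearly follows sex, limits this test as well. Ecm1 on NC had 73.4, 103 and 153 CPM in males and 126, 158 and 222 CPM in females (lowest, median, highest), and on cdHFD 64.4, 74.9 and 126 CPM in males and 78.7, 92.2 and 119.97 CPM in females. The ranges of the sexes overlapped on both diets, and the difference in log2 fold change was -0.42 ± 0.08 (adjusted p = 9.63e-05). Reln, a glycoprotein secreted by stellate cells in the liver, had medians of 15.2 and 23.9 CPM in males and females on NC and 27.7 and 30.5 CPM on cdHFD, a difference of -0.54 ± 0.11 (adjusted p = 0.0003). Timp2, Dcn, Vim and Mmp14 followed, with differences of -0.51 ± 0.13, -0.33 ± 0.08, -0.46 ± 0.12 and -0.42 ± 0.13. Vim medians were 30.2 CPM in males and 37.04 CPM in females on NC and 157 and 156 CPM on cdHFD. Without the discordant libraries 8 genes were called, with Lum and Serpinh1 gained. With replicate numbers left out in turn, which also shifts the balance of the sexes, the count ranged from 1 to 8.

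**Figure D5:**
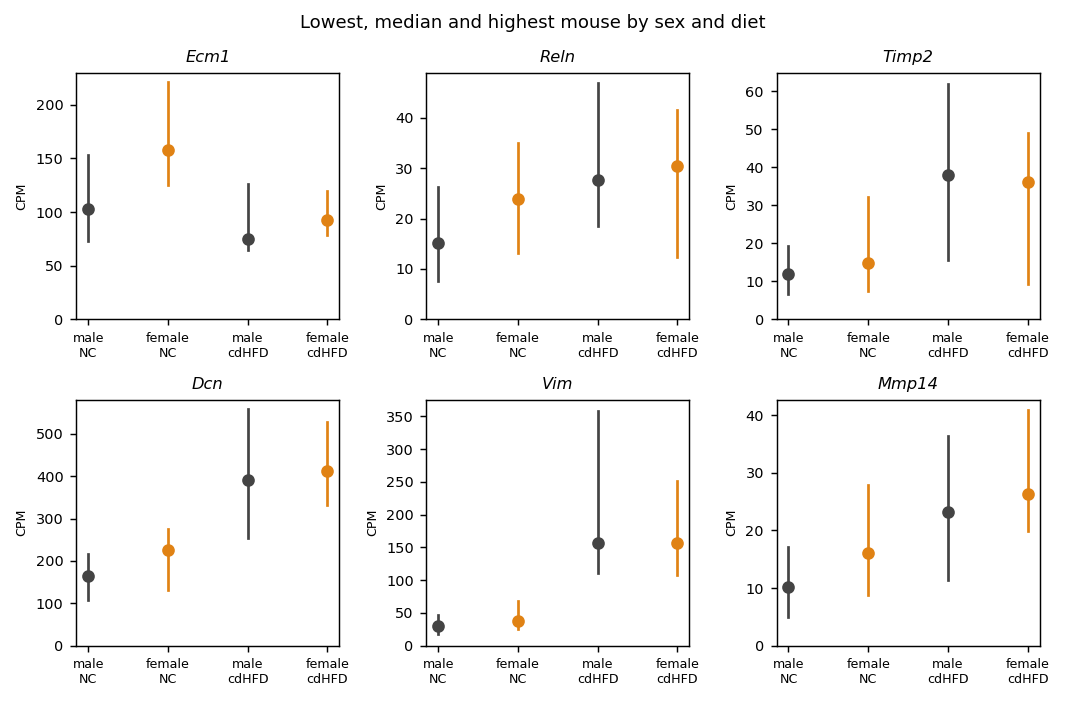
CPM (vertical axis, from 0) of the 6 genes whose diet effect differed between the sexes, in males and females on NC and cdHFD with the genotypes pooled (24, 24, 25 and 23 mice); points are medians and bars run from the lowest to the highest mouse. Ecm1 medians were 103 and 158 CPM in males and females on NC and 74.9 and 92.2 CPM on cdHFD.

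Neighbouring parts of the pathway were counted from further lists, to be read beside the 28.4% of all genes higher and 27.3% lower on cdHFD in Hep-Bmal1WT livers and the 32.4% and 29.6% in Hep-Bmal1KO livers. These lists and the cell type markers below were tested with TMM scaling alone. Small falls among them, such as that of Ltbp4, lie within the shift that library totals give on cdHFD in Hep-Bmal1WT livers. Of 23 TGF-beta pathway genes 17 were higher and 1 lower on cdHFD in Hep-Bmal1WT livers and 19 higher and none lower in Hep-Bmal1KO livers, with median log2 fold changes of 0.54 and 0.82. They included the receptor Tgfbr1 (0.69 ± 0.08 and 1.05 ± 0.08 in the 2 genotypes), and the lower gene was the latency protein Ltbp4 (-0.23 ± 0.10). Of 19 collagen biosynthesis genes 12 and 13 were higher and 3 and 4 lower, with medians of 0.44 and 0.35. Adamts2, which cuts the amino end of procollagen, rose by 1.82 ± 0.13 and 2.23 ± 0.15, and Bmp1, which cuts the carboxyl end, fell by 0.67 and 0.68. Colgalt1, a collagen galactosyltransferase, rose by 0.85 ± 0.06 in Hep-Bmal1WT livers, where Mia3, an export receptor for collagen, fell by 0.53, and the procollagen protease gene Adamts14 rose by 4.07 ± 0.28 in Hep-Bmal1KO livers, where the isomerase gene Ppib fell by 0.35. Of 18 matrix degradation genes 13 and 14 were higher and 4 lower in each genotype, with medians of 1.41 and 1.78. The macrophage elastase Mmp12 rose by 6.11 ± 0.13 and 6.29 ± 0.13 and the collagenase Mmp13 by 5.07 ± 0.31 and 4.98 ± 0.30, while plasminogen, Plg, changed by -1.0004 ± 0.06 and -1.24 ± 0.08. The other lower protease of smallest p was Adam9 in Hep-Bmal1WT livers (-0.48 ± 0.06) and Mmp19 in Hep-Bmal1KO livers (-0.68 ± 0.07). Between genotypes on cdHFD, 6 TGF-beta pathway genes, 5 collagen biosynthesis genes and 6 degradation genes were higher and 0, 0 and 2 were lower in Hep-Bmal1KO livers, beside 4.75% and 4.92% of all genes. The medians of the 3 lists were 0.13, 0.00 and 0.24, and the genes of smallest p were Ltbp2 (1.06 ± 0.18), Adamts14 (1.10 ± 0.20) and Plat (0.86 ± 0.19).

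Cell type markers were counted in the same way, and their counts on cdHFD stand beside the same shares of all genes. Of 17 other stellate cell markers tested, 10 and 11 were higher and 3 lower on cdHFD in Hep-Bmal1WT and Hep-Bmal1KO livers, with medians of 0.54 and 0.84. Cygb, a globin of stellate cells, rose by 1.11 ± 0.10 and 1.68 ± 0.11, and the chemokine gene Cxcl12 changed by -0.92 ± 0.07 and -0.63 ± 0.06. The endothelin receptor gene Ednrb rose by 1.10 ± 0.11 and 1.32 ± 0.09, and the peptide receptor gene Vipr1 changed by -0.49 ± 0.10 and -0.50 ± 0.09. The summed CPM of that list had medians of 427 on NC and 371 on cdHFD in Hep-Bmal1WT livers (284 to 626 and 290.3 to 451) and of 362 and 404 in Hep-Bmal1KO livers (272 to 489 and 319 to 494). Cxcl12 alone had medians of 217 and 119.9 CPM in Hep-Bmal1WT livers and of 172 and 113 CPM in Hep-Bmal1KO livers, so that it weighed most in the sum, while most markers of the list were higher. Gfap, a marker of stellate cells, was at 0 in 51 libraries and did not pass the filter, and neither did the portal fibroblast marker Gli1, at 0 in 75.

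Macrophage markers were higher for 16 of 16 genes in both genotypes, Gpnmb by 5.16 ± 0.15 and 6.34 ± 0.18 and Trem2 by 4.70 ± 0.14 and 5.21 ± 0.16, and their summed CPM went from 449 (233 to 629) to 2169 (1135 to 2870.2) in Hep-Bmal1WT livers and from 424 (201 to 656) to 2436 (1593 to 3267) in Hep-Bmal1KO livers. Hepatocyte markers were lower for 8 of 8, Ttr by -1.23 ± 0.07 and -1.27 ± 0.08 on the log2 scale, and their sum went from 147802 to 72836 CPM and from 97242 to 61477 CPM. Portal fibroblast and mesothelial markers, of cells that also make collagen, were higher for 5 of 9 genes and lower for none in each genotype (Entpd2 by 1.76 ± 0.12 and 1.68 ± 0.14), with a summed median of 14.7 CPM on NC and 31.8 CPM on cdHFD in Hep-Bmal1WT livers. Cholangiocyte markers were higher for 4 and 5 of 8, led by Epcam (1.52 ± 0.24 and 2.08 ± 0.24), and endothelial markers for 7 and 8 of 12, led by Lyve1 (1.45 ± 0.17 and 1.88 ± 0.19), with Kdr and Ptprb lower. Smooth muscle markers were higher for 2 and 3 of 7, Myl9 by 1.02 ± 0.19 and 0.91 ± 0.16, and Mylk was lower in Hep-Bmal1WT livers (-0.17 ± 0.07). In Hep-Bmal1WT livers 2 of 7 is close to the 28.4% of all genes. The macrophage markers Cx3cr1 and Itgax and the cholangiocyte marker Mmp7 had medians of 0.251, 0.373 and 0.243 CPM on NC, near 1 read. They were at 0 in 15, 10 and 18 of the 96 libraries. Their reads on NC are not given here, so they may have passed the minimum only through cdHFD livers. Median log2 fold changes on cdHFD in Hep-Bmal1WT and Hep-Bmal1KO livers were 2.67 and 2.89 for macrophage, -1.02 and -0.85 for hepatocyte, 0.64 and 0.73 for portal fibroblast, 0.81 and 1.54 for cholangiocyte, 0.23 and 0.26 for endothelial and 0.30 and 0.51 for smooth muscle markers.

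On cdHFD, where 4.75% of all genes were higher and 4.92% lower, Hep-Bmal1KO livers had more of 5 stellate cell markers (Cygb by 0.44 ± 0.10), 7 macrophage markers (Gpnmb by 0.89 ± 0.12), 5 of 8 cholangiocyte markers (Epcam by 1.15 ± 0.22) and 2 portal fibroblast markers, and less of 2 hepatocyte markers and of 1 macrophage marker, the Kupffer cell lectin Clec4f (-0.35 ± 0.08). No endothelial or smooth muscle marker was called. The part of these cell types in the matrix results was not tested.

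Matrix genes also varied together among mice of the same genotype, diet and ZT. With each gene's log2 CPM taken as the deviation from its combination mean, the median Spearman correlation over 1081 pairs of members was 0.30 across the 96 libraries, which share depth and tissue sampling. Each combination held both sexes, and neither sex differences nor the discordant libraries were removed. Over all 74706976 pairs of 12224 other genes with a mean of at least 1 CPM it was 0.0016, and over pairs of a member and such a gene -0.0029. It was 0.37 among the 14 collagens and 0.50 among the 6 fibrillar collagens. The closest pairs were Bgn and Sparc (0.82), Col1a1 and Col3a1 (0.77) and Col1a2 and Col3a1 (0.76). Col27a1 stood apart, with a median correlation of -0.02 with the other members.

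The 12224 other genes, without any of the 47 members, were ranked by their correlation with the sum of the 14 collagens on the same scale. The 10 closest were Prelp (0.65), Adamts2 (0.63), Mrc2 (0.60), Pcolce, Evc, Fstl1, Spp1, Art4, Clmp and Angptl2. Prelp is a leucine-rich matrix protein, Mrc2 an endocytic collagen receptor and Pcolce an enhancer of procollagen cutting. With Col18a1 left out of the sum, the closest was Adamts2 (0.66).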

How the data were processed

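Livers of 96 mice were profiled by BRB-seq. The authors used STAR and the mm10 genome for alignment, and the deposited values are raw read counts for each gene, not normalized. The submitters' processing notes also name HTSeq, featureCounts and DESeq2. Whether reads of one molecule were collapsed, and whether strand was used, is not given in the sources used here, so precision from depth covers counting error only. Depth ran from 1861740 to 9718615 reads on genes. Reads that named no gene were left out, among them 14.8 to 34.0% of each library that was not aligned and 5.65 to 11.3% without a feature.

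Genotype, diet, ZT and sex were taken from the labels, and replicates are separate mice. Genes with at least 100 counts in all were kept, and counts were scaled by TMM and tested with edgeR 4.0.16 in R 4.3.3 (quasi-likelihood, Benjamini-Hochberg over all 15548 genes, threshold 0.05). Fits within a genotype or diet had ZT as a factor. SE is the absolute log2 fold change divided by the square root of F. DESeq2 1.42.0 served as an alternative. The steps were tested on simulated data.

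The members and lists were chosen with earlier results of these data known. Named genes were a core of 9 (Col1a1, Col1a2, Col3a1, Col4a1, Timp1, Acta2, Vim, Des, Lrat), the 5 of smallest p in each direction of the diet comparisons, at most 5 in each direction of the others, and 2 a direction from further lists. Some genes that this rule names in the further lists are not reported here. Other members named were chosen by role after their values were seen. The alternatives were other size factors, filters and tests, sex as a covariate, each sex alone, 1 fit over all libraries, each replicate number left out, and leaving out the discordant libraries. Library totals and leaving out the library of lowest depth were added after the data had been seen. The closest replicates differed by more than sampling noise, so none was counted as a duplicate. Positions are from RefSeq for GRCm38.p6, in which all 47 symbols matched. Sequences were not used here.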

Additional observations from a re-analysis of the deposited data

Results flagged for a closer look

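The diet effect differed between genotypes for 8 genes by the genotype by diet test. The difference in log2 fold change, Hep-Bmal1KO minus Hep-Bmal1WT, was 2.32 for Col27a1, 1.46 for Col5a2, 0.71 for Rgs5, 0.49 for Timp3, 0.65 for Lamb1, -0.26 for Col18a1, 0.61 for Postn and 1.80 for Lox. The diet effect differed between the sexes for 6 genes, female minus male, by -0.42 for Ecm1, -0.54 for Reln, -0.51 for Timp2, -0.33 for Dcn, -0.46 for Vim and -0.42 for Mmp14. It differed with ZT in Hep-Bmal1WT livers for Col4a1 (adjusted p = 0.0164 by edgeR's quasi-likelihood test) and Des (adjusted p = 0.0291), 4.26% of the set beside 5.59% of all genes. Col4a1 lost that call without replicate 1, 3 or 4 (adjusted p = 0.109, 0.141 and 0.145) and Des without the discordant libraries (adjusted p = 0.172).

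Dixon's criterion was applied to 144 groups of 4 mice, for 5 genes and the sum of 13 collagens at each ZT, and marked 7 of them, where chance marks about 1 in 20. For Des these were Hep-Bmal1KO mice on NC at ZT10 (replicate 4, 14.4 CPM), at ZT14 (replicate 1, 29.2 CPM) and at ZT22 (replicate 1, low at 1.78 CPM), a Hep-Bmal1WT mouse on NC at ZT22 (replicate 4, 39.8 CPM) and one on cdHFD at ZT2 (replicate 3, 26.9 CPM). For Col27a1 they were Hep-Bmal1KO mice on NC at ZT6 (replicate 4, 4.84 CPM) and on cdHFD at ZT14 (replicate 1, 6.12 CPM), and both libraries are among the discordant ones.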

How the results depend on the processing

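Of 193 alternative counts of members, 150 stayed within 1.5 times the reported count and 43 did not. Of the values of single genes, 1896 kept direction and call, 168 lost the call and 3 reversed: with library totals Fn1 was 0.0697 in Hep-Bmal1WT and 0.26 in Hep-Bmal1KO livers and Col18a1 0.14 in Hep-Bmal1WT livers on cdHFD against NC. Library totals also gave 1 lower gene in Hep-Bmal1WT and 0 in Hep-Bmal1KO livers, 2 diet by ZT genes in Hep-Bmal1KO livers and 1 rhythm in Hep-Bmal1KO livers on NC. Females alone gave 1 genotype call on NC, 9 on cdHFD and 3 genotype by diet calls, and males alone 11 genotype calls on cdHFD. DESeq2's Wald test called 13 genotype by diet genes. Without a filter, diet by ZT calls were 6 in Hep-Bmal1WT and 5 in Hep-Bmal1KO livers and diet by sex calls 13. Sex as a covariate gave 7 and 2 diet by ZT calls and 11 rhythms in Hep-Bmal1WT livers on cdHFD, and the filter of 10 counts in 24 libraries gave 2 diet by ZT calls in Hep-Bmal1KO livers. Without the discordant libraries there were 4 diet by ZT calls in Hep-Bmal1WT livers and 1 rhythm in Hep-Bmal1KO livers on NC. The cosinor F test gave 3, 1 and 4 rhythms in Hep-Bmal1WT on NC, Hep-Bmal1KO on NC and Hep-Bmal1WT on cdHFD, and an unadjusted p under 0.01 gave 4 and 2 in Hep-Bmal1KO livers on NC and cdHFD. Apart from the alternatives that use fewer livers, the cause was not tested. Shares of all genes are not given for these alternative counts, nor for those with replicate numbers left out.

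With each replicate number left out in turn, higher genes on cdHFD ranged from 38 to 42 and lower genes from 4 to 5 in Hep-Bmal1WT livers, and from 41 to 43 and 2 to 3 in Hep-Bmal1KO livers. Genotype calls ranged from 2 to 3 on NC and 10 to 30 on cdHFD, genotype by diet calls from 2 to 9, diet by ZT calls from 0 to 1 in Hep-Bmal1WT livers and 0 to 0 in Hep-Bmal1KO livers. Rhythms ranged from 3 to 6 in Hep-Bmal1WT livers on NC and on cdHFD and were 1 to 1 in Hep-Bmal1KO livers on each diet. Sex calls ranged from 11 to 13 and diet by sex calls from 1 to 8. No paired analysis was possible because replicate numbers were given in accession order and pair no mice. In most combinations replicates 1 and 2 were males and 3 and 4 females, so leaving out a number also shifts the balance of the sexes. Depth limits 10 members on NC, where at least 1 liver had no read: Col15a1, Lama2, Thbs1, Thbs2, Lox, Loxl1, Loxl2, Mmp2, Timp1 and Tagln.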

Other observations

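The spread of the summed collagens in Hep-Bmal1KO livers on cdHFD followed no single direction of sex. At ZT2 both females had 572 and 704 CPM for the 13 collagens other than Col18a1 and both males 240.0 and 263 CPM. At ZT6 the males had 866 and 1218 CPM and the females 445 and 454 CPM, and at ZT10 the males had 1113 and 1497 CPM and the females 844 and 887 CPM. Over all times the medians were 618 CPM in 12 females and 577 CPM in 12 males of this group, with ranges of 445 to 887 and 240.0 to 1497 CPM. These differences between pairs of mice were not tested.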
